A study of Mus musculus with 10 samples.

Results

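The genes described here are 10 members of the NF-kB system: the 5 subunits *Nfkb1*, *Nfkb2*, *Rel*, *Rela* and *Relb*, the IkB proteins encoded by *Nfkbia* and *Nfkbiz*, and the feedback inhibitors *Tnfaip3*, *Tnip1* and *Zc3h12a*. They were taken by symbol from a table of 24421 genes counted in erythroid progenitors, and all 10 passed the filter on low counts that left 11846 genes for testing. NF-kB is a dimer of Rel-family proteins that waits in the cytoplasm bound to an inhibitor of the IkB family. Receptors for cytokines and microbial products activate a kinase that marks IkB for destruction, and the freed dimer enters the nucleus. Among the genes it induces are its own inhibitors, so mRNAs such as *Nfkbia* and *Tnfaip3* are commonly read as a trace of recent NF-kB activity.

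The study asked how loss of 1 copy of *Ddx41*, which encodes a DEAD-box RNA helicase, and of 1 copy of *Trp53*, which encodes p53, acts on blood-forming cells. Bone marrow was taken from donors carrying Rosa26-CreERT2, a Cre recombinase that is expressed in all tissues and is switched on by tamoxifen. Lethally irradiated BoyJ recipients were given 1000000 bone marrow cells and 1 mg of tamoxifen per day in 2 rounds of 5 days, and 100000 CD71+Ter119+ cells (R2 erythroid progenitors) were sorted from each recipient 8 weeks after transplant. The genotypes were Ddx41+/+ Trp53+/+ (3 mice, replicates 10, 11 and 12), Ddx41+/- Trp53+/+ (2 mice, replicates 32 and 34), Ddx41+/+ Trp53+/- (3 mice, replicates 22, 23 and 24) and Ddx41+/- Trp53+/- (2 mice, replicates 46 and 47). All genotypes carried Cre and received tamoxifen, so the controls share both. The *Ddx41* allele was a floxed allele recombined after transplant, whereas the *Trp53* allele was a germline knockout present throughout development. The sort used no donor marker, so host cells in the gate were not separated from donor cells.

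Each library came from 1 mouse and held 7866648 to 20283930 counts, with Ddx41+/- Trp53+/+ replicate 34 the shallowest. *Ddx41* mRNA was at 12.5 to 16.5 CPM (counts scaled to 1000000 per library) in the 4 Ddx41+/- libraries and at 21.9 to 26.6 CPM in the 6 Ddx41+/+ libraries, and *Trp53* mRNA at 40.3 to 46.2 CPM in the 5 Trp53+/- libraries and at 57.4 to 68.1 CPM in the 5 Trp53+/+ libraries, so no library went against its label. Erythroid genes were abundant, with *Slc4a1* at a mean of 28369 CPM and *Tfrc*, the gene of CD71, at 3061 CPM in Ddx41+/+ Trp53+/+ cells. The globin genes of the table, which also mark this lineage, were all below 1 CPM in the mean of every genotype. *Hbb-bt* and *Hbb-b2* were at 0 CPM throughout. Whether globin reads were lost or left out before the counts were deposited was not tested. These values are therefore not taken as the globin mRNA level of the cells, and CPM is a share of the deposited counts only. Markers of other blood cells were present as well: the summed level of 16 B cell genes was 370 to 807 CPM over the libraries, of 12 macrophage genes 269 to 630 CPM and of 13 neutrophil genes 5172 to 8882 CPM. In bulk RNA, more cells of a type and more mRNA per cell cannot be told apart, and this holds for every value below.

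Because several members are known NF-kB targets, their promoters were searched for the kappa-B consensus, the 10-letter site bound by Rel dimers, on both strands. RefSeq windows (GRCm38.p6, 250 bases before to 50 after a transcription start) were found for 7 of the 10 members, and 5 of the 7 held at least 1 match. Some members have several starts, and 7 of their 10 windows held a match, against 8.46% of the 32851 windows of all genes. These windows are not independent, because those of the *Nfkb2* starts at bases 46305695 and 46305930 of chr19 overlap and share 1 site. The 137 bases before the start are printed 5' to 3' on the coding strand for the inhibitors and for *Rel* (136 bases, ending at its 5' exon), with kappa-B matches in capitals, and overlapping matches joined. They are shown so that the members that moved together can be compared.
*Tnfaip3*, chr10:19015411-19015547, minus strand: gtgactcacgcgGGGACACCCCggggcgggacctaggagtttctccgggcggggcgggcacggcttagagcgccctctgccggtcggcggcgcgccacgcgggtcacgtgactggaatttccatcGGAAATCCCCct
*Zc3h12a*, chr4:125127882-125128018, minus strand: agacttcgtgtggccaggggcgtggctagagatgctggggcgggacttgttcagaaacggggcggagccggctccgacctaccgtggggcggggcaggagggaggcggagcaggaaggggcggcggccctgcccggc
*Nfkbia*, chr12:55492648-55492784, minus strand: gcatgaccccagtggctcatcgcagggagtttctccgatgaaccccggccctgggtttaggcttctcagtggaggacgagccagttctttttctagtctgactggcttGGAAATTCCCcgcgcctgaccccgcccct
*Tnip1*, chr11:54962941-54963077, minus strand: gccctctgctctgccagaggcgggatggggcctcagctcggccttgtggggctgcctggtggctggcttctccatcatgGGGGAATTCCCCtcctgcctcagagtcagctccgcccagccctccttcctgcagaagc
*Rel*, chr11:23770971-23771106, minus strand: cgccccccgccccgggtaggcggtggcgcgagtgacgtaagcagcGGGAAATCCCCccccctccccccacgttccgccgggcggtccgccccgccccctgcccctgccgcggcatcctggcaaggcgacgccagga
For *Nfkb2*, 30 bases around the match farthest from the first start are shown.
*Nfkb2*, chr19:46304688-46304717, plus strand: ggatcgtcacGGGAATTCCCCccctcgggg
The matches of *Tnfaip3* began 125 and 12 bases before its upstream start, while the window of its other RefSeq start (chr10, base 19011963) held none, and a match to the AP-1 site TGANTCA, which 7.81% of promoters held, began 136 bases before the upstream start. The match began 92 bases before the start in *Rel*, 58 in *Tnip1* and 29 in *Nfkbia*, and a pair of matches lay 39 and 11 bases before the first start of *Nfkb2*. No match was found in the windows of *Zc3h12a* and *Rela*. Windows were not found for *Nfkb1*, *Relb* and *Nfkbiz*. A match is a string of letters, and binding was not measured.

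The members differed widely in level when counts were divided by exon length (CPM per kb of exon). In Ddx41+/+ Trp53+/+ cells, *Nfkbia*, the gene of IkBa, was the highest at 48.96 ± 7.88 CPM per kb (SD, n = 3), above *Rela*, which encodes the transactivating subunit p65, at 14.9 ± 1.24 CPM per kb. *Tnfaip3*, *Tnip1*, *Nfkbiz* and *Nfkb2* followed at means of 3.32 to 7.02 CPM per kb, and each of these overlapped its neighbor in the order. *Nfkb1* (2.41 CPM per kb) and *Zc3h12a* (2.15 CPM per kb) overlapped each other, and *Relb* (1.03) and *Rel* (0.593) were the lowest in CPM per kb without overlapping. *Nfkbia* stayed at the top in every genotype, reaching 105.4 ± 2.95 CPM per kb (SD, n = 2) in Ddx41+/- Trp53+/- cells. In those cells *Tnfaip3*, at 17.2 CPM per kb, stood above *Rela*, at 15.2 CPM per kb, with no overlap, whereas in the other genotypes its mean was below that of *Rela*. *Relb* was then the lowest member at 1.39 CPM per kb, below *Rel* at 1.58 CPM per kb.

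**Figure D1:**
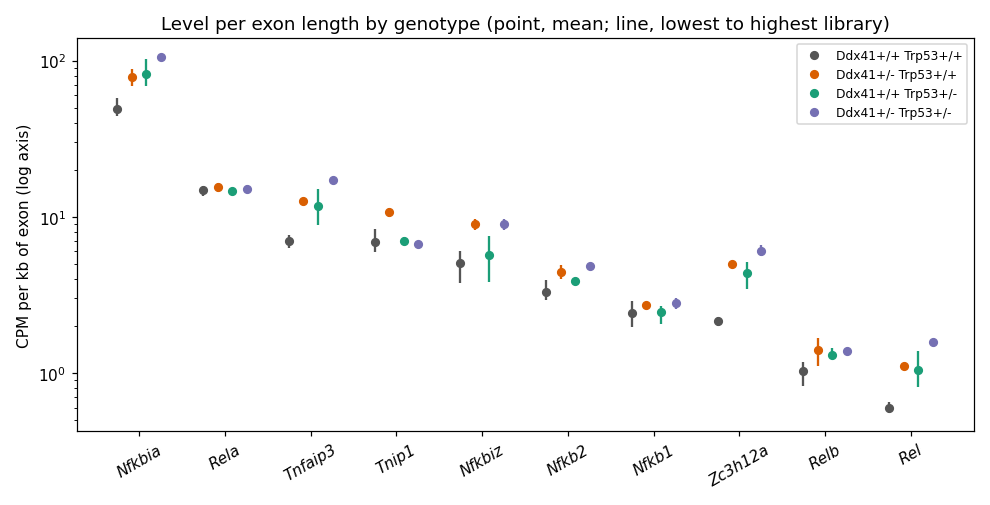
CPM per kb of exon (log axis) of the 10 members in the 4 genotypes, with points for the mean and lines from the lowest to the highest library, ordered by level in Ddx41+/+ Trp53+/+ cells. *Nfkbia* is the highest member in every genotype, and *Tnfaip3* passes *Rela* in Ddx41+/- Trp53+/- cells (17.2 against 15.2 CPM per kb).

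With 2 copies of *Trp53*, *Zc3h12a* rose 2.31-fold and *Tnfaip3* 1.80-fold in Ddx41+/- relative to Ddx41+/+ R2 cells, and these 2 of the 10 members were called (more than 1.5-fold, with an adjusted p below 0.05), against 0.54% of all genes tested. All 10 members had a positive log2 fold change, with a median of 0.65 beside 0.0010 over all tested genes. In 7 of the 10, both Ddx41+/- libraries were above all 3 Ddx41+/+ libraries, which held for 12.9% of all genes. With either Ddx41+/- library left out the remaining arm was 1 mouse and no member was called, while the log2 fold changes stayed between 1.12 and 1.27 for *Zc3h12a* and between 0.77 and 0.91 for *Tnfaip3* over all settings tried. Leaving out some of the other mice added 1 called member. This was *Nfkbia* without replicate 11 (log2 fold change 0.82) or 23 (0.68), *Tnip1* without replicate 12 (0.78) and *Nfkbiz* without replicate 22 (0.83). Calls over all genes were then 44, 70, 103 and 65, in that order, against 64 with every mouse.

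*Tnfaip3* encodes A20, a ubiquitin-editing enzyme that shuts off signaling from cytokine receptors to the IkB kinase. Its level was 55.2, 51.6 and 45.4 CPM in Ddx41+/+ Trp53+/+ replicates 10, 11 and 12, and 90.3 and 92.2 CPM in Ddx41+/- Trp53+/+ replicates 32 and 34. It was 63.6, 108.3 and 82.7 CPM in Ddx41+/+ Trp53+/- replicates 22, 23 and 24, and 118.7 and 129.7 CPM in Ddx41+/- Trp53+/- replicates 46 and 47. The 3 Ddx41+/+ Trp53+/+ libraries were thus the lowest of the 10 and the 2 Ddx41+/- Trp53+/- libraries the highest, with the 2 single heterozygotes overlapping in between. How many of all tested genes had this order, described below also for *Zc3h12a*, *Nfkbia* and *Rel*, was not counted. With Trp53+/+ the log2 fold change of Ddx41+/- over Ddx41+/+ was 0.84 (standard error, SE, 0.154, adjusted p = 0.0149, edgeR quasi-likelihood test).

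*Zc3h12a* encodes regnase-1, an endoribonuclease that degrades mRNAs of inflammatory cytokines and of *Nfkbiz*. It was at 6.54, 6.32 and 5.74 CPM in Ddx41+/+ Trp53+/+ replicates 10, 11 and 12, and at 15.0 and 13.6 CPM in Ddx41+/- Trp53+/+ replicates 32 and 34. It was at 9.999, 14.8 and 12.8 CPM in Ddx41+/+ Trp53+/- replicates 22, 23 and 24, and at 16.1 and 19.0 CPM in Ddx41+/- Trp53+/- replicates 46 and 47. As for *Tnfaip3*, the Ddx41+/+ Trp53+/+ libraries were the lowest and the Ddx41+/- Trp53+/- libraries the highest, and neither overlapped another genotype. The log2 fold change for Ddx41+/- with Trp53+/+ was 1.20 (SE 0.188, adjusted p = 0.00446, edgeR).

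*Tnip1* encodes ABIN1, a ubiquitin-binding partner of A20. Its level was 22.6, 21.1 and 29.6 CPM in Ddx41+/+ Trp53+/+ replicates 10, 11 and 12, and 35.1 and 40.4 CPM in Ddx41+/- Trp53+/+ replicates 32 and 34. It was 23.9, 26.5 and 24.4 CPM in Ddx41+/+ Trp53+/- replicates 22, 23 and 24, and 23.8 and 23.6 CPM in Ddx41+/- Trp53+/- replicates 46 and 47. Only the Ddx41+/- Trp53+/+ libraries stood above the rest, and the other 3 genotypes lay close together, so *Tnip1* did not share the order of *Tnfaip3*. With Trp53+/+ its log2 fold change for Ddx41+/- was 0.63 (SE 0.145, adjusted p = 0.0632, edgeR), which did not pass the threshold.

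*Nfkbia* encodes IkBa, which holds NF-kB dimers in the cytoplasm and is resynthesized after each round of activation. Its level was 70.9, 93.4 and 72.1 CPM in Ddx41+/+ Trp53+/+ replicates 10, 11 and 12, and 111.6 and 142.1 CPM in Ddx41+/- Trp53+/+ replicates 32 and 34. It was 110.1, 165.9 and 117.8 CPM in Ddx41+/+ Trp53+/- replicates 22, 23 and 24, and 166.3 and 173.0 CPM in Ddx41+/- Trp53+/- replicates 46 and 47. Every library of the other 3 genotypes was above the 3 Ddx41+/+ Trp53+/+ libraries, and the Ddx41+/- Trp53+/- libraries were the highest, just above replicate 23. With Trp53+/+ the log2 fold change for Ddx41+/- was 0.68 (SE 0.157, adjusted p = 0.0632, edgeR), short of the threshold.

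*Nfkbiz* encodes IkBz, an atypical nuclear IkB that acts as a coactivator on part of the NF-kB targets. It was at 27.6, 18.8 and 30.2 CPM in Ddx41+/+ Trp53+/+ replicates 10, 11 and 12, and at 48.7 and 41.3 CPM in Ddx41+/- Trp53+/+ replicates 32 and 34. It was at 19.2, 37.6 and 29.3 CPM in Ddx41+/+ Trp53+/- replicates 22, 23 and 24, and at 48.6 and 41.2 CPM in Ddx41+/- Trp53+/- replicates 46 and 47. The libraries separated by *Ddx41* genotype alone, all 4 Ddx41+/- libraries being above all 6 Ddx41+/+ libraries. With Trp53+/+ the log2 fold change was 0.83 (SE 0.219, adjusted p = 0.118, edgeR), which did not pass.

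**Figure D2:**
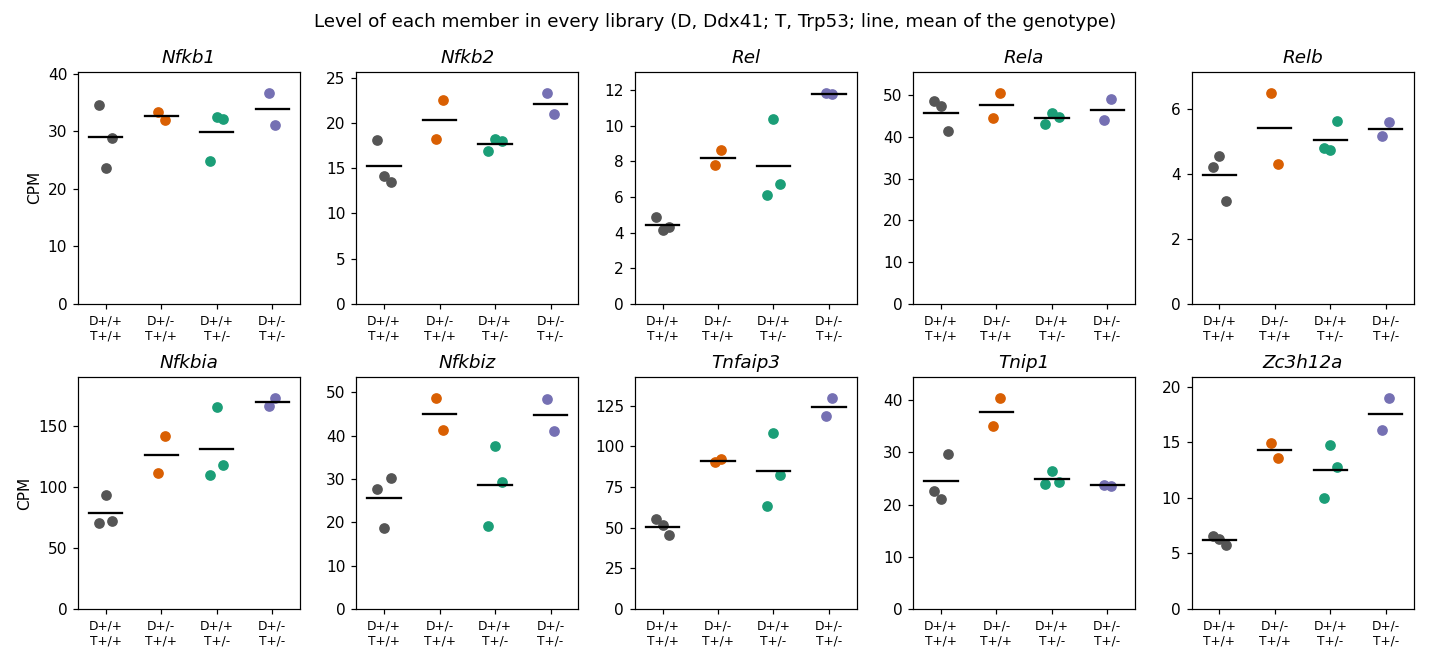
CPM of each of the 10 members in every library (points), by genotype (D for Ddx41, T for Trp53), with a line at the mean of the genotype. *Tnfaip3* and *Zc3h12a* are lowest in the 3 Ddx41+/+ Trp53+/+ libraries and highest in the 2 Ddx41+/- Trp53+/- libraries, *Tnip1* is high only in the Ddx41+/- Trp53+/+ libraries, and *Rela* is at 41.5 to 50.5 CPM in all 10.

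Among the subunits, *Rel*, the gene of c-Rel, which is best known in lymphocytes, had the order of *Tnfaip3*. It was at 4.85, 4.13 and 4.29 CPM in Ddx41+/+ Trp53+/+ replicates 10, 11 and 12, and at 7.79 and 8.64 CPM in Ddx41+/- Trp53+/+ replicates 32 and 34. It was at 6.10, 10.4 and 6.75 CPM in Ddx41+/+ Trp53+/- replicates 22, 23 and 24, and at 11.9 and 11.8 CPM in Ddx41+/- Trp53+/- replicates 46 and 47. The Ddx41+/+ Trp53+/+ libraries were the lowest and the Ddx41+/- Trp53+/- libraries the highest. Its log2 fold change for Ddx41+/- with Trp53+/+ was 0.88 (SE 0.238, adjusted p = 0.131, edgeR), not past the threshold.

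*Nfkb2* encodes the p100 precursor of p52 in the noncanonical pathway. It was at 18.1, 14.1 and 13.5 CPM in Ddx41+/+ Trp53+/+ replicates 10, 11 and 12, and at 18.2 and 22.5 CPM in Ddx41+/- Trp53+/+ replicates 32 and 34. It was at 16.9, 18.2 and 18.0 CPM in Ddx41+/+ Trp53+/- replicates 22, 23 and 24, and at 23.3 and 20.9 CPM in Ddx41+/- Trp53+/- replicates 46 and 47. All 4 Ddx41+/- libraries were above all 6 Ddx41+/+ libraries, although replicates 32 and 23 differed by less than 0.1 CPM. The log2 fold change with Trp53+/+ was 0.40 (SE 0.161, adjusted p = 0.409, edgeR). Exons of *Nfkb2* overlap those of *Psd* and AC114539.1 on the opposite strand, and 17.3% of its 75-base stretches were shared with them, so its counts are uncertain if the reads were counted without strand.

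The other subunits gave no difference past the spread between mice. *Rela* was at 45.9 ± 3.82 CPM (SD, n = 3) without and 47.6 ± 4.21 CPM (SD, n = 2) with the loss of a *Ddx41* copy, both with Trp53+/+, and its 10 libraries lay between 41.5 and 50.5 CPM. *Nfkb1*, the gene of p105 and its product p50, was at 29.02 ± 5.49 CPM and 32.7 ± 0.940 CPM in the same genotypes. *Relb*, the partner of p52, was at 3.99 ± 0.721 CPM and 5.41 ± 1.55 CPM, and its lowest library held 34 counts. Their log2 fold changes were 0.05 for *Rela* (SE 0.1095), 0.17 for *Nfkb1* (SE 0.161) and 0.46 for *Relb* (SE 0.263), with adjusted p of 0.938, 0.804 and 0.625 (edgeR). The spread between mice, as the coefficient of variation fitted by edgeR, was smallest for *Rela* (0.0860) and largest for *Relb* (0.174).

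**Figure D3:**
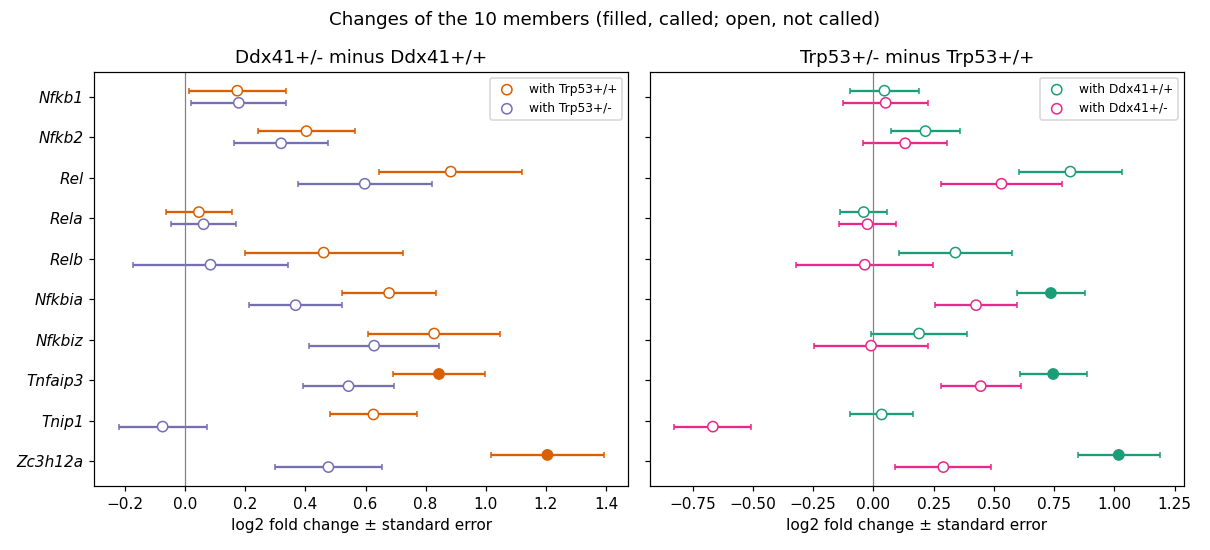
Log2 fold change with its standard error for the 10 members, for Ddx41+/- over Ddx41+/+ (left) and Trp53+/- over Trp53+/+ (right), each with the other gene at +/+ or +/-. Filled points mark called members: *Zc3h12a* (1.20) and *Tnfaip3* (0.84) on the left, *Zc3h12a* (1.02), *Tnfaip3* (0.75) and *Nfkbia* (0.74) on the right.

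With 1 copy of *Trp53*, 9 of the 10 members had a positive log2 fold change for Ddx41+/- over Ddx41+/+, and none was called. The largest log2 fold changes were those of *Nfkbiz* at 0.63 (SE 0.216), *Rel* at 0.60 (SE 0.223), *Tnfaip3* at 0.54 (SE 0.150) and *Zc3h12a* at 0.48 (SE 0.178). *Nfkbia* was at 0.37 and *Nfkb2* at 0.32 on the log2 scale, while *Nfkb1*, *Relb*, *Rela* and *Tnip1* lay between -0.07 and 0.18. The median over the members was 0.34, beside -0.0050 over all genes. In 6 of the 10, both Ddx41+/- libraries were above all 3 Ddx41+/+ libraries, against 9.23% of all genes. In *Tnip1* both were below, which held for 1277 of the 11846 genes tested. The edgeR test called 0 members, against 0.0422% of all genes, with 5 members at an unadjusted p under 0.05 and 0 called by DESeq2. Without Ddx41+/+ Trp53+/- replicate 23, the highest library of its genotype for *Tnfaip3*, *Zc3h12a*, *Nfkbia* and *Rel*, the log2 fold change of *Tnfaip3* was 0.76 and it was called (adjusted p = 0.0282, edgeR).

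Whether the Ddx41 effect differed between the *Trp53* genotypes was tested as an interaction. The difference, Trp53+/- minus Trp53+/+, was negative for 8 of 10 members, with a median of -0.29 beside -0.0077 over all genes. It was largest for *Zc3h12a*, at -0.73 (SE 0.261, adjusted p = 0.790, edgeR), and for *Tnip1*, at -0.70 (SE 0.207, adjusted p = 0.589, edgeR). For *Tnfaip3* the difference was -0.30 (SE 0.216). The edgeR test called 0 members, against 0.0675% of all genes, with 2 members at an unadjusted p under 0.05 and 0 called by DESeq2. The smaller effects with Trp53+/- were thus not shown to differ from those with Trp53+/+.

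Over both *Trp53* genotypes, with *Trp53* as a term of the model, *Zc3h12a* and *Tnfaip3* rose in the 4 Ddx41+/- mice relative to the 6 Ddx41+/+ mice. The log2 fold change was 0.83 for *Zc3h12a* (SE 0.154, adjusted p = 0.0433, edgeR) and 0.69 for *Tnfaip3* (SE 0.111, adjusted p = 0.0203, edgeR). These 2 of 10 members were called, against 0.11% of all genes. *Nfkbiz* at 0.73 (adjusted p = 0.0748), *Rel* at 0.73 (adjusted p = 0.103) and *Nfkbia* at 0.52 (adjusted p = 0.101) did not pass edgeR's threshold. In *Nfkbiz* and *Nfkb2*, 2 of the 10 members, every Ddx41+/- library was above every Ddx41+/+ library whatever the *Trp53* genotype, which held for 0.794% of all genes. Over all genes, calls went from 13 to 42 without Ddx41+/+ Trp53+/- replicate 23. The count of called members also depended on single mice. Without Ddx41+/+ Trp53+/- replicate 23 it was 5, and without Ddx41+/+ Trp53+/+ replicate 10 or either Ddx41+/- Trp53+/+ library it was 0. It was 1 without replicate 11 or 12 of the Ddx41+/+ Trp53+/+ mice, replicate 22 or 24 of the Ddx41+/+ Trp53+/- mice or replicate 47 of the Ddx41+/- Trp53+/- mice.

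Loss of 1 *Trp53* copy alone was accompanied by higher mRNA of 3 inhibitors. In Ddx41+/+ cells, *Zc3h12a* rose 2.03-fold, *Tnfaip3* 1.68-fold and *Nfkbia* 1.67-fold in Trp53+/- relative to Trp53+/+ mice, and these 3 of 10 members were called, against 0.912% of all genes. Their log2 fold changes were 1.02 for *Zc3h12a* (SE 0.170, adjusted p = 0.00687), 0.75 for *Tnfaip3* (SE 0.139, adjusted p = 0.0136) and 0.74 for *Nfkbia* (SE 0.141, adjusted p = 0.0154), all by edgeR. *Rel* was at 0.82 (SE 0.212, adjusted p = 0.0954), and *Nfkbiz*, *Tnip1* and the other subunits lay between -0.04 and 0.34. Without Trp53+/- replicate 23, only *Zc3h12a* was called, with *Tnfaip3* and *Nfkbia* both at a log2 fold change of 0.53. The call of *Nfkbia* was also lost without Ddx41+/+ Trp53+/+ replicate 10 (log2 fold change 0.66) or 12 (0.68), and that of *Tnfaip3* without Trp53+/- replicate 24 (0.77). This comparison and that of the Ddx41 genotypes with Trp53+/+ share the 3 Ddx41+/+ Trp53+/+ mice, which were the lowest for *Tnfaip3*, *Zc3h12a*, *Nfkbia* and *Rel*, so the 2 comparisons are not independent.

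In Ddx41+/- cells no member was called between the *Trp53* genotypes. *Rel* was at a log2 fold change of 0.53 (SE 0.251), *Tnfaip3* at 0.45 (SE 0.167), *Nfkbia* at 0.43 (SE 0.172) and *Zc3h12a* at 0.29 (SE 0.199) in Trp53+/- over Trp53+/+ mice. *Nfkbiz*, which separated the *Ddx41* genotypes, was at -0.01 (SE 0.238). *Tnip1* had the lowest value of the 10, at -0.67 (SE 0.160, adjusted p = 0.170, edgeR). The edgeR test called 0 of 10 members, against 0.169% of all genes, with 3 members at an unadjusted p under 0.05. DESeq2 called 1 of 10 members and 37 of the 11846 genes tested.

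The members lie on 8 chromosomes. In the GENCODE M21 annotation of GRCm38, *Tnfaip3* spans chr10:19000910-19015657, *Zc3h12a* chr4:125118423-125127840 and *Nfkbia* chr12:55489410-55492647, all on the minus strand. *Tnip1* (chr11:54910785-54962917) and *Rel* (chr11:23736847-23770970) share chromosome 11 with *Trp53* (chr11:69580359-69591873), at distances of 14.62 and 45.81 Mb.

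Genes that followed the members most closely were sought over the 10 libraries, which share genotype and so are described without a test. The level (log2 CPM) of *Tnfaip3* was most like those of *Rel* (Pearson's r = 0.985), *Zc3h12a* (r = 0.975) and *Irf2bp2* (r = 0.965), so its nearest neighbors among 11846 genes were a pair of the listed members. *Zc3h12a* was most like *Rnf44* (r = 0.976), *Tnfaip3* (r = 0.975) and *Slco4a1* (r = 0.962). *Nfkbia* was most like *Kctd3* (r = 0.967), *Pnrc1* (r = 0.962) and *Irf2bp2* (r = 0.960).

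Of 98 other NF-kB pathway genes (receptors, adaptors, kinases, ubiquitin ligases, other IkB proteins, other negative regulators and targets), 95 were tested. With Trp53+/+, 2 of the 95 rose in Ddx41+/- cells and 0 fell, against calls for 0.54% of all genes, with a median log2 fold change of 0.08. In 24 of the 95 both Ddx41+/- libraries were above all 3 Ddx41+/+ libraries, which held for 12.9% of all genes. *Cd69*, a leukocyte activation antigen, was at 23.8 CPM in the Ddx41+/- mice and 9.63 CPM in the Ddx41+/+ mice, a log2 fold change of 1.31 (SE 0.236, adjusted p = 0.0141, edgeR). *Il1r1*, the receptor for interleukin-1, was at 38.1 and 23.02 CPM, a log2 fold change of 0.73 (SE 0.147, adjusted p = 0.0312, edgeR). The 4 other IkB genes *Nfkbib*, *Nfkbid*, *Nfkbie* and *Bcl3* had log2 fold changes of 0.52 to 0.78, near those of *Nfkbia* and *Nfkbiz*, and none was called (adjusted p of 0.180 to 0.699). The 13 kinases, among them *Chuk* and *Tbk1*, had a median of -0.03, the 16 adaptors a median of 0.09 and the 7 ubiquitin ligases a median of -0.02. Among 31 targets the median was 0.12, with 24 positive, 7 negative and the antiapoptotic gene *Bcl2l1* at 0.09. Both Ddx41+/- libraries were above all 3 Ddx41+/+ libraries in 11 of the 31 targets and below them in 0.

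With Trp53+/-, 0 of the 95 pathway genes were called by edgeR in Ddx41+/- cells, against 0.0422% of all genes. *Cd69* was then at a log2 fold change of 0.16 (SE 0.223) and *Il1r1* at 0.44 (SE 0.145). Over both *Trp53* genotypes *Il1r1* was above in every Ddx41+/- library, at 34.7 to 40.9 CPM against 20.7 to 31.5 CPM, with a log2 fold change of 0.58 (adjusted p = 0.0402, edgeR) that fell just under the fold limit. For Trp53+/- over Trp53+/+ in Ddx41+/+ cells, *Cd69* (log2 fold change 1.40, adjusted p = 0.00338, edgeR) and *Tnfrsf13c* (log2 fold change 1.21, adjusted p = 0.0347, edgeR) were called. These were 2 of the 95, against 0.912% of all genes. *Tnfrsf13c*, the B cell receptor for BAFF, is named here after its values were seen.

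Markers of B cells moved with the members in part. The 16 B cell genes summed to 624, 381 and 370 CPM in Ddx41+/+ Trp53+/+ replicates 10, 11 and 12, to 579 and 807 CPM in Ddx41+/- Trp53+/+ replicates 32 and 34, to 584 to 704 CPM in the Ddx41+/+ Trp53+/- mice and to 756 and 650 CPM in the Ddx41+/- Trp53+/- mice. In Ddx41+/- over Ddx41+/+ mice with Trp53+/+, 16 of 16 B cell genes had a positive log2 fold change (median 0.88, 2 called, against 0.54% of all genes), and in Trp53+/- over Trp53+/+ mice with Ddx41+/+, 16 of 16 (median 1.23, 6 called, against 0.912% of all genes). With Trp53+/- the Ddx41 comparison gave 8 of 16 positive, with a median of -0.02, where *Tnfaip3*, *Rel*, *Nfkbiz* and *Zc3h12a* were at 0.48 to 0.63. The part of B cell mRNA in the members' levels was not tested.

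Genes of the immediate-early and heat shock response were measured beside the members. Their 11 mRNAs summed to 1226 to 1482 CPM in Ddx41+/+ Trp53+/+ mice, 2079 to 2083 CPM in Ddx41+/- Trp53+/+ mice, 1332 to 1879 CPM in Ddx41+/+ Trp53+/- mice and 1686 to 1804 CPM in Ddx41+/- Trp53+/- mice. By this sum the Ddx41+/- Trp53+/+ libraries were the highest, as they were for *Tnip1*. *Tnfaip3*, *Zc3h12a*, *Nfkbia* and *Rel* were highest with both genes heterozygous. The genes of the list differed among themselves. Means in Ddx41+/- Trp53+/+ mice were above those in Ddx41+/- Trp53+/- mice for *Fos*, *Junb*, *Egr1*, *Dusp1*, *Hspa1a* and *Hspa1b* (178.8 and 54.6 CPM). The libraries of these genotypes overlapped for *Junb*. The mean was lower for *Ier2* (78.1 and 111.2 CPM) and for *Fosb* (184.0 and 194.8 CPM), the latter with overlapping libraries. *Jun* (303.5 and 304.6 CPM), *Atf3* (64.6 and 65.3 CPM) and *Nr4a1* (65.6 and 66.7 CPM) were almost equal, also with overlap. The median log2 fold change of the list for Ddx41+/- was 0.69 with Trp53+/+ (3 of 11 called, against 0.54% of all genes) and 0.32 with Trp53+/- (0 called, against 0.0422%). Macrophage genes summed to 334 to 630 CPM in Ddx41+/+ Trp53+/+ mice. Their log2 fold change for Ddx41+/- was positive in 12 of 12 with Trp53+/- (median 0.53, 0 called, against 0.0422% of all genes). With Trp53+/+ it was positive in 3 of 12 (median -0.16, 0 called, against 0.54% of all genes). Between the *Trp53* genotypes in Ddx41+/+ mice, *Zc3h12a*, *Tnfaip3* and *Nfkbia* rose with Trp53+/-. There macrophage genes had a positive log2 fold change in 0 of 12 (median -0.66, 0 called, against 0.912% of all genes). T cell genes were positive in 10 of 10 in that comparison (median 0.59, 0 called) and in 8 of 10 for Ddx41+/- with Trp53+/+ (median 0.55, 0 called). Neutrophil genes were positive in 12 of 13 for Trp53+/- with Ddx41+/+ (median 0.14, 0 called). For Ddx41+/- they were positive in 10 of 13 with Trp53+/+ (median 0.19, 0 called) and in 5 of 13 with Trp53+/- (median -0.01, 0 called). The part of these lists in the members' levels was not tested.

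**Figure D4:**
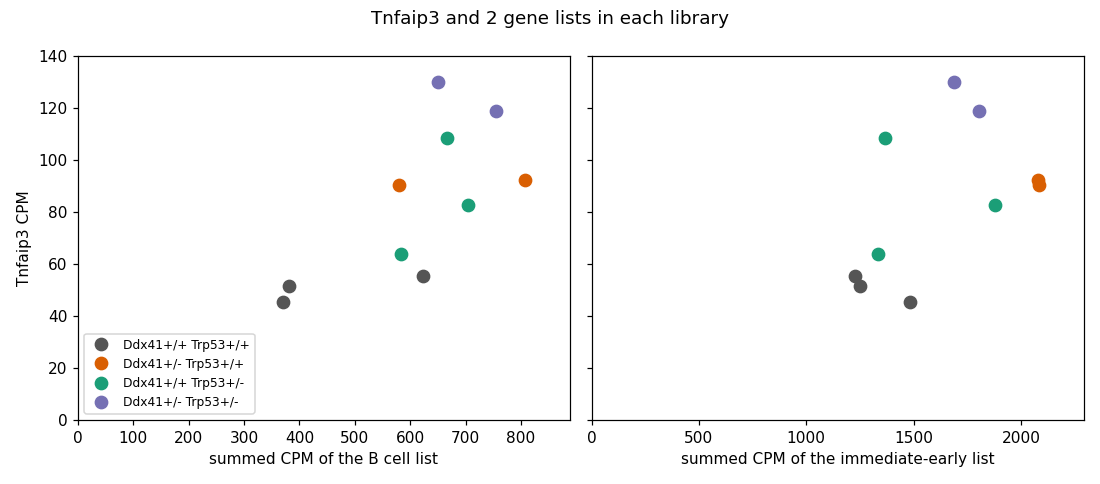
*Tnfaip3* CPM (vertical axis) against the summed CPM of 16 B cell genes (left) and 11 immediate-early and heat shock genes (right), 1 point per library, colored by genotype. The Ddx41+/+ Trp53+/+ libraries are lowest for *Tnfaip3* (45.4 to 55.2 CPM), and replicate 10 among them has a B cell sum of 624 CPM, above Ddx41+/- Trp53+/+ replicate 32 at 579 CPM with *Tnfaip3* at 90.3 CPM.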

How the data were processed

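RNA from sorted CD71+Ter119+ bone marrow cells of 10 mice was sequenced after poly(A) selection, 1 library per mouse. The values the authors deposited are raw counts of reads for each gene symbol, with no normalization. The submitters' processing notes list FastQC 0.11.7, HISAT2 2.0.5, featureCounts 1.5.2 and mm10; the annotation and strand setting are not given in the sources used here. The paper names a TruSeq RNA kit, and the sample labels a stranded TruSeq mRNA kit. Mice 35 and 45, removed according to the deposited counts, were not used here. Libraries held 7866648 to 20283930 counts, which without molecular identifiers are not independent molecules. Samples of 1 genotype differed by more than sampling noise (chi-square per degree of freedom of 6.58 to 16.8), so none was a duplicate.

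The counts were tested with edgeR 4.0.16 in R 4.3.3. The filter on low counts by genotype left 11846 of 24421 genes, libraries were scaled by TMM, and 1 quasi-likelihood model by genotype was fitted to all 10 libraries. The comparison over both *Trp53* genotypes used a separate additive model of the same libraries, with its own estimate of the spread. Each two-sided p was adjusted by Benjamini-Hochberg over the 11846 genes. A gene was called when it changed more than 1.5-fold with an adjusted p below 0.05. Each p weighs a difference between genotypes against the spread between mice, which was estimated from all 10 libraries together. CPM used the scaled library sizes, and log2 CPM a prior count of 2. The standard error was the absolute log2 fold change divided by the square root of F. The procedure was tested on simulated data.

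The members and gene lists were chosen with earlier results of these data known. All 10 members are named in each comparison; of the pathway list, every gene called in a comparison of the Ddx41 genotypes and otherwise up to 4 per role with the highest mean CPM; and for each member called, the 3 genes of highest Pearson's r. Alternatives were DESeq2 1.42.0, its size factors within edgeR, no filter, a minimum of 10 counts in all libraries, a fit of only the genotypes compared, each mouse left out, and replicates 12 and 23 left out together. Positions are GENCODE M21, promoters RefSeq. Figures were drawn with matplotlib 3.10.9 in Python 3.11.15.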

Additional observations from a re-analysis of the deposited data

Results flagged for a closer look

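The Ddx41 effect on *Tnip1* was positive with Trp53+/+ (log2 fold change 0.63, SE 0.145) and within its error of no change with Trp53+/- (-0.07, SE 0.147). Both Ddx41+/- libraries were above all 3 Ddx41+/+ libraries with Trp53+/+ (35.1 and 40.4 CPM against 21.1 to 29.6 CPM), and both were below all 3 with Trp53+/- (23.8 and 23.6 CPM against 23.9 to 26.5 CPM). The former held for 12.9% of all genes and the latter for 1277 of the 11846 tested. The difference of the effects was -0.70 on the log2 scale (standard error 0.207, adjusted p = 0.589, edgeR), which did not pass the test, and the gap with Trp53+/- was 0.1 CPM.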

How the results depend on the processing

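The counts of called members in the Ddx41 comparison with Trp53+/+, with Trp53+/- and over both, and in the Trp53 comparison with Ddx41+/+ and with Ddx41+/-, were 2, 0, 2, 3 and 0. Over all tested genes the calls were 64, 5, 13, 108 and 20. With DESeq2's Wald test the members' counts were 3, 0, 4, 4 and 1, and those over all genes 131, 7, 40, 161 and 37. With no filter on low counts the members' counts were 6, 1, 4, 4 and 1. Those over all genes were 243, 39, 94, 250 and 67. With at least 10 counts in every library the members' count over both was 1, and 8 of 10010 genes were called. With only the genotypes compared in the fit, 3 members and 47 genes were called with Trp53+/+. For Trp53 with Ddx41+/+ these were 2 and 66. Without Ddx41+/+ Trp53+/+ replicate 12 and Ddx41+/+ Trp53+/- replicate 23 together, the Ddx41 counts were 5, 1 and 5. Over all genes these were 123, 14 and 35. For Trp53 with Ddx41+/+, 94 genes were then called, and the members' count was 0. With single mice left out, the counts ranged from 0 to 3 with Trp53+/+, 0 to 1 with Trp53+/-, 0 to 5 over both, 1 to 3 for Trp53 with Ddx41+/+ and 0 to 0 for Trp53 with Ddx41+/-. A lone remaining mouse was assumed to vary like the other genotypes. The interaction called 0 members in every setting. The cause of these shifts was not tested. Of the single-gene values under all alternatives, 850 kept their sign and their side of the threshold, 30 came past it and 25 fell short of it. The other 35 changed sign and were called in neither fit. Only a value called before these changes could fall short, and most values were not called. The 850 therefore say little about how stable the calls were. With 2 or 3 mice per genotype and as few as 34 counts for *Relb* in 1 library, the number of mice and the depth limit the precision. No paired analysis was possible because the genotypes share no replicate numbers.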
